A study of Mus musculus with 15 samples.

Results

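Brown adipose tissue of mice lacking DJ-1 in that tissue was compared with that of flox control mice after 8 weeks of housing at 29 °C, a temperature near thermoneutrality at which the tissue has little heat to make. The comparison rests on 7 of the 15 RNA sequencing libraries of the series, all those labelled with 29 °C housing: 3 of the BAT-specific DJ-1 knockout, labelled BDJ1KO and here called KO, and 4 of flox mice, labelled WT, which carry the floxed allele without the deletion. The other 8 libraries, 4 WT and 4 KO, came from mice housed at room temperature for the same 8 weeks and entered the fit to share the estimate of spread and to test whether an effect differed between the temperatures. The Cre driver, strain, age, sex and hour of collection of the mice are not given in the sources used here. Whether the samples of a group are different animals is not given either, and p-values here cover only the spread from sample to sample.

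DJ-1, encoded by Park7, is a small redox-sensitive protein whose loss causes an inherited form of Parkinson disease, and it is best known for protecting cells and their mitochondria from oxidative damage. Brown adipocytes burn lipid and sugar in abundant mitochondria to release heat through the uncoupling protein Ucp1. At thermoneutrality the sympathetic drive to the tissue is low, and the tissue loses much of this activity and comes to resemble white fat. The tissue is richly supplied with capillaries and nerve fibres, and it also holds fibroblasts, macrophages and a few lymphocytes.

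Park7 measured 128, 126, 116 and 104 CPM (counts scaled by library size and between libraries) in WT replicates 1 to 4 and 35.2, 25.4 and 34.5 CPM in KO replicates 1 to 3. The lowest WT library stood well above the highest KO library, and the genotype labels held in all 7. The KO mean was 26.8% of the WT mean (log2 fold change -1.90 ± 0.13 (SE), adjusted p = 1.49e-07 by edgeR's quasi-likelihood test with Benjamini-Hochberg adjustment). An exact permutation test of the 7 values, two-sided, gave p = 0.0286, the smallest that 35 arrangements allow. The gene lies at chr4:150897133-150914437 on the minus strand of GRCm38 (GENCODE M21). Ucp1, the defining gene of brown fat, was abundant in every library, from 839 CPM in WT replicate 1 to 8596 CPM in KO replicate 2.

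Library totals lay between 23977448 and 25270299 estimated counts in 6 libraries and reached 38800967 in KO replicate 1. Mitochondrially encoded transcripts made up 25.8% to 26.9% of each KO library and 30.2% to 41.6% of each WT library. The first principal component of the 7 libraries held 50.0% of the variance and parted WT (-51.3 to -9.39) from KO (40.5 to 62.7). The second, with 22.9%, put WT replicate 2 at -53.8 and KO replicate 3 at -32.4, against 53.4 for KO replicate 1. Summed over 22 skeletal muscle markers, muscle transcripts amounted to 0.238% of the library for WT replicate 2, 0.281% for KO replicate 3 and 0.0827% for KO replicate 2, against 0.00401% to 0.00717% in the other 4. The libraries with muscle transcripts are thus 1 WT and 2 KO, and the only KO library without them is the most deeply sequenced. Counts were recomputed without these 3 libraries, which leaves 3 WT and 1 KO library at 29 °C, the lone KO library being assumed to vary like the other groups.

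The genotypes differed across the whole transcriptome. Of 15083 genes tested, 6747 passed an adjusted p of 0.05 (44.7%), 3728 of them higher in KO (24.7%) and 3019 lower (20%). These shares are the background for every group of genes described here. A change over 1.5-fold was seen in 4182 of the called genes (27.7% of those tested), and the median size of the log2 change among all called genes was 0.71. The median log2 fold change over all genes tested was 0.04. The KO and WT libraries did not overlap for 6502 genes (43.1%), with KO higher in 3540 (23.5%) and lower in 2962 (19.6%). With the 3 muscle-bearing libraries set aside, 4229 genes passed, 2110 higher and 2119 lower. Of the 6747 genes, 58.7% were called there in the same direction, and 8 had the opposite sign.

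**Figure D1:**
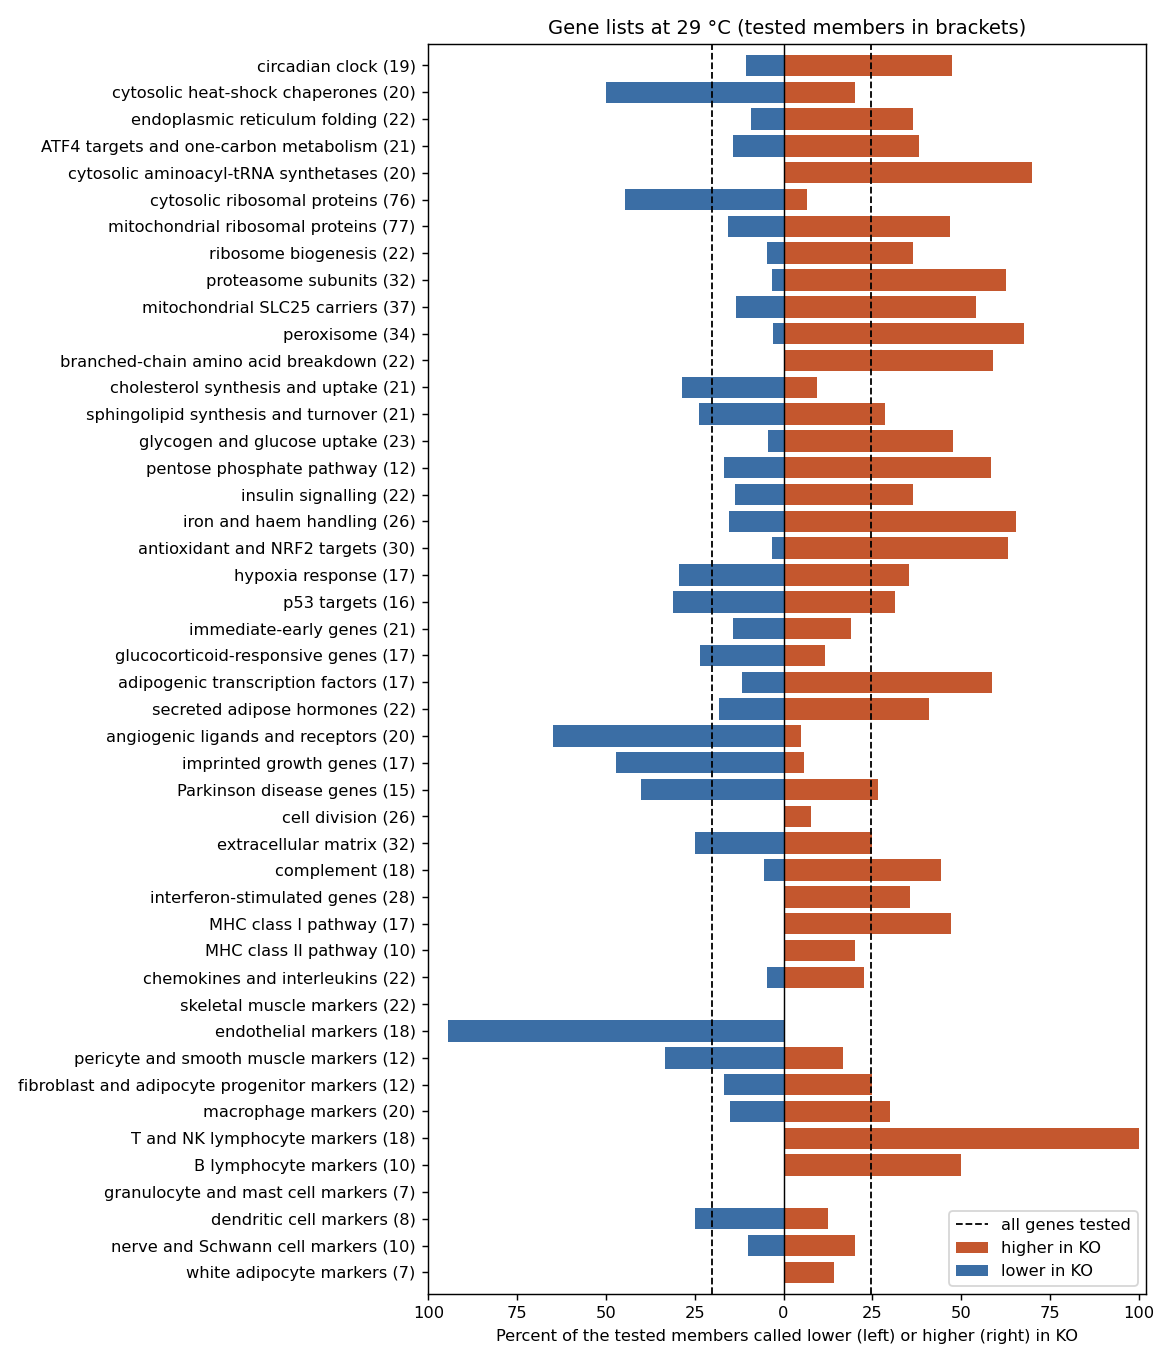
Percent of the tested members of 46 gene lists that were called higher (right) or lower (left) in KO at 29 °C, by edgeR at an adjusted p under 0.05. The dashed lines mark the 24.7% and 20% of all genes tested, and the lists farthest past them are the T and NK lymphocyte markers (18 of 18 higher) and the endothelial markers (17 of 18 lower).

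The largest rises outside heat production were in genes of quite different kinds. Slpi, a secreted inhibitor of leukocyte proteases, rose by 4.90 ± 0.50 on the log2 scale, from 0.400 ± 0.181 to 12.1 ± 8.09 CPM (SD, n = 4 and 3). Mzb1, an endoplasmic reticulum protein of antibody-secreting B cells, rose by 4.31 ± 0.42 and the vesicle protein Syt12 by 3.96 ± 0.33. Rasl10a, a Ras-like GTPase, rose from 0.267 to 2.84 CPM (3.38 ± 0.29, adjusted p = 6.52e-07). Adrb1, the beta-1 adrenergic receptor, rose from 6.72 to 46.9 CPM (2.80 ± 0.39). Fndc5, which encodes the precursor of irisin and is strongly expressed in muscle, measured 0.0694, 0.598, 0.726 and 0.161 CPM in WT and 3.23, 3.46 and 3.81 CPM in KO (3.13 ± 0.72, adjusted p = 0.00337). The 3 KO libraries were close to each other and above all 4 WT libraries. With the 3 libraries with muscle transcripts set aside the difference was 3.22 and no longer passed (adjusted p = 0.0551).

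Among the largest falls were Muc6, a gel-forming mucin (-3.65 ± 0.45, from 2.50 to 0.195 CPM), Dact2, a regulator of Wnt and TGF-beta signalling (-2.78 ± 0.36), and the calcium-binding protein Cabp1 (-2.71 ± 0.33). Aldh1a3, which makes retinoic acid, fell by 2.31 and the serine protease Prss12 by 2.33. The matrix protein Fras1 fell by 2.32, the cell adhesion protein Kirrel3 by 2.23 and the cadherin Cdh23 by 2.14. Chrnb1, the beta subunit of the muscle acetylcholine receptor, measured 20.6, 22.1, 24.4 and 33.8 CPM in WT and 4.04, 3.98 and 8.84 CPM in KO (-2.17 ± 0.30, adjusted p = 5.73e-05). Its WT library with muscle transcripts lay among the other WT libraries. In all, 163 of the called genes were over 4-fold higher and 92 over 4-fold lower.

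By the size of the change in CPM, the largest gain after Ucp1 was that of Pck1, the enzyme that feeds glycerol synthesis in fat cells. Pck1 measured 820, 870, 1145 and 1084 CPM in WT and 3664, 4492 and 3574 CPM in KO (2.0 ± 0.30, adjusted p = 1.09e-04). Lpl, the lipase that takes fat from blood lipoproteins, rose from 1564 ± 335 to 4235 ± 707 CPM. Gpd1, Aldoa, Gnas, Dgat2, Gapdh and Hadhb, of glycerol phosphate supply, glycolysis, receptor signalling, triglyceride synthesis, glycolysis and fatty acid oxidation, were among the rest of the 10, with log2 fold changes from 0.76 to 1.29. The largest losses included COX1, COX2, COX3, ATP6 and ND3 of the mitochondrial genome (-0.87 to -0.52). Aqp1, a water channel of capillary endothelium and red cells, measured 1237, 1228, 1225 and 1290 CPM in WT and 291, 278 and 339 CPM in KO. The groups were tight and far apart, and the fall of 2.04 ± 0.14 on the log2 scale (adjusted p = 1.77e-07) was the largest among the 10 largest losses in CPM. Tmsb4x, an actin-binding peptide, fell by 1.17 and the nuclear long RNA Neat1 by 0.82, although the Neat1 libraries overlapped.

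**Figure D2:**
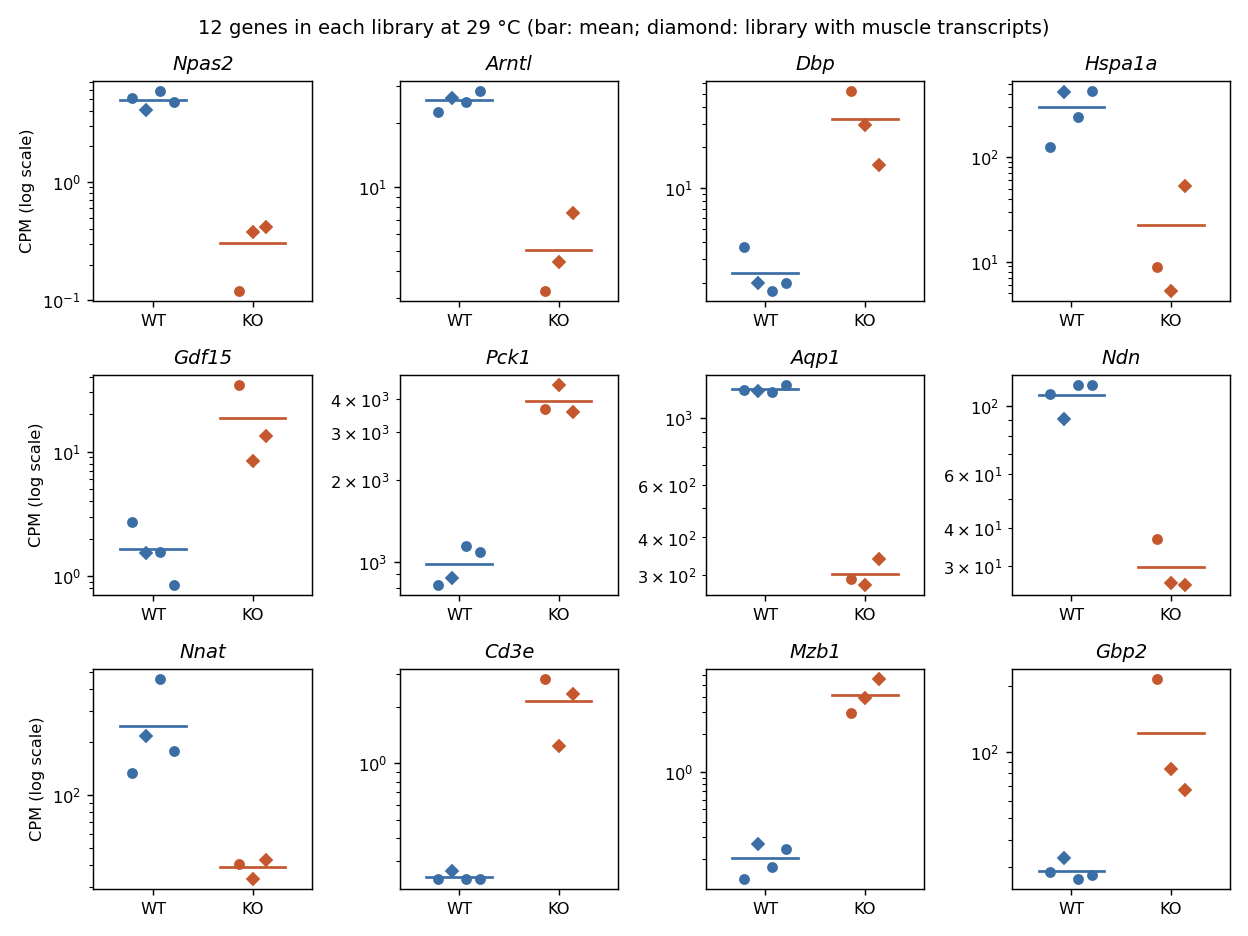
CPM on a log axis for 12 genes in each WT (blue, n = 4) and KO (orange, n = 3) library at 29 °C, with horizontal bars for the means and diamonds for the 3 libraries with muscle transcripts. In each panel the groups do not overlap.

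Clock genes moved in opposite directions within their feedback loop. The loop is driven by the activators Arntl (BMAL1), Clock and Npas2, which switch on their own repressors, and by the nuclear receptors Nr1d1 and Nr1d2, which repress Arntl. Npas2 measured 5.17, 4.05, 5.88 and 4.72 CPM in WT and 0.119, 0.376 and 0.416 CPM in KO, and Arntl 22.6, 26.2, 25.3 and 28.4 CPM in WT and 3.21, 4.40 and 7.52 CPM in KO. Both were lower in every KO library than in any WT library, and both fell (-4.08 ± 0.34, adjusted p = 4.52e-07, and -2.35 ± 0.28, adjusted p = 1.27e-05). Clock itself, the usual partner of Arntl, did not pass (-0.26, adjusted p = 0.135).

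The output factors that bind D-box elements rose together: Dbp (3.78 ± 0.40), Hlf (1.84 ± 0.20) and Tef (1.07 ± 0.14). Dbp measured 3.68, 1.99, 1.73 and 1.98 CPM in WT and 52.2, 29.5 and 14.8 CPM in KO, so that the KO libraries differed widely among themselves yet all lay above WT. The repressors of Arntl, Nr1d1 and Nr1d2, rose by 1.70 and 1.29, Per3 by 1.33, Rora by 0.66, and the basic helix-loop-helix repressors Bhlhe40 and Bhlhe41 by 1.35 and 1.66. Per1, Per2, Cry1 and Nfil3 were among the other 8, which did not pass. In all, 9 of 19 clock genes rose and 2 fell, with a median of 0.14, and without the 3 libraries with muscle transcripts these counts were 8 and 2. With WT replicate 1 or KO replicate 3 left out, 4 members were lower. For 11 of the 19 the KO effect was one that differed between 29 °C and room temperature by the interaction test (adjusted p under 0.05). Of all genes tested, 28.3% passed that test. The 2 genes called at room temperature went the other way there: Arntl rose (1.30) and Nr1d2 fell (-0.74). The hour at which each mouse was sampled is not given, so whether the groups were collected at the same clock time was not tested.

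**Figure D3:**
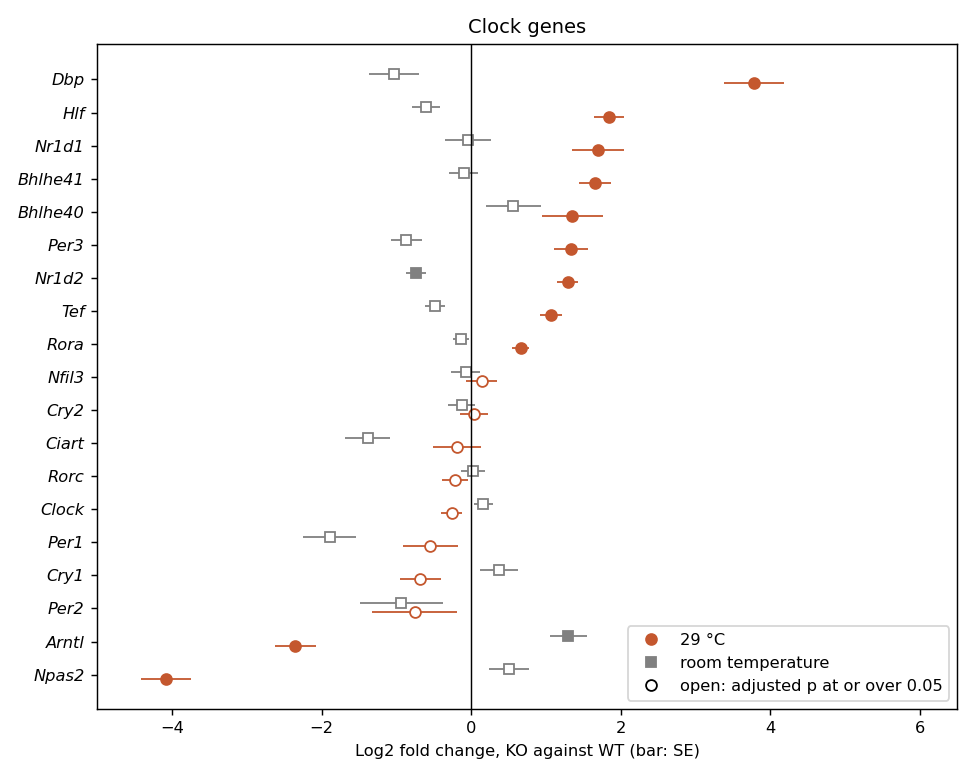
Log2 fold change with SE of 19 clock genes in KO against WT at 29 °C (orange circles) and at room temperature (grey squares), filled where the adjusted p was under 0.05. At 29 °C 9 genes are higher and 2, Npas2 and Arntl, lower.

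Promoter windows of clock, heat-shock and interferon genes were searched for the element each group is best known for, because several members of each group were called in the same direction. The windows are RefSeq's, GRCm38.p6, from 250 bases before to 50 after a gene's start, and 32851 were searched on both strands. The letters were TAGGTCA for the element bound by Rora and Nr1d1 (2.61% of all windows), CACGTG for the E-box of Arntl and its partners (7.15%), GAANNTTCNNGAA for the heat-shock element (0.603%) and TTTCNNTTTC for the core of the interferon-stimulated response element (3.44%). None of the 4 matches shown overlaps another of these motifs, and the Hsph1 window holds an E-box elsewhere. A match is a description of the window, not a site shown to be bound. The first of the windows shown is that of Arntl, the fallen clock gene with a match, the second that of Tef, which rose, the third that of the fallen chaperone Hsph1 and the last that of Gbp2, which rose, with the matched letters in capitals, 5′ to 3′ along the gene's strand.
Arntl (chr7:113207261-113207560, plus strand): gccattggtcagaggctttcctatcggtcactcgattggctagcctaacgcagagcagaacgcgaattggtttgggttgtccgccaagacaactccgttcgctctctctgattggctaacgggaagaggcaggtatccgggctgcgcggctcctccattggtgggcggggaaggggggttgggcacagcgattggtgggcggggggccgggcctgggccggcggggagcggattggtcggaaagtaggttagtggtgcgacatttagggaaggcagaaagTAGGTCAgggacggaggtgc
Tef (chr15:81802423-81802722, plus strand): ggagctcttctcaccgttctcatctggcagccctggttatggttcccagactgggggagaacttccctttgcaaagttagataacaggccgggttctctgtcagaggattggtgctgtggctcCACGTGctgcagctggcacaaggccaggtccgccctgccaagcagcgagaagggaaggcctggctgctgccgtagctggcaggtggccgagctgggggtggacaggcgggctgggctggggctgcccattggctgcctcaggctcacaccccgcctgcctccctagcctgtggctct
Hsph1 (chr5:149636287-149636586, minus strand): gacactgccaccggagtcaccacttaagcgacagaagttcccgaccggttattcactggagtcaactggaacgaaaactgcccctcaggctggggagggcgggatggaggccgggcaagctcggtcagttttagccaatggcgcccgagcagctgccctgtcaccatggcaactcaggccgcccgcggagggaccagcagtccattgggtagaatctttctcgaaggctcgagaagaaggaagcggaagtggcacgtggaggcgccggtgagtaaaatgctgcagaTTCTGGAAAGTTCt
Gbp2 (chr3:142620413-142620712, plus strand): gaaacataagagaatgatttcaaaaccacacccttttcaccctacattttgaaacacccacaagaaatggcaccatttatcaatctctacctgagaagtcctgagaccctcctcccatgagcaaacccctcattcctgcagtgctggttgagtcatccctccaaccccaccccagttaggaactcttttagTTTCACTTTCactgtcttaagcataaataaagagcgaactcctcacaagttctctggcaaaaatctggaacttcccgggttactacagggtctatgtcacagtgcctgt
The Arntl match begins 30 bases after the start and that of Hsph1 36 bases after it, while those of Tef and Gbp2 begin 127 and 59 bases before it. Of the clock genes with a window, the E-box was found in 2 of 8 that rose (Tef and Bhlhe41) and in 3 of 6 not called (Per1 and Cry1 among them), and TAGGTCA in 1 of 2 that fell and in Nfil3. Of the heat-shock genes, 2 of 8 that fell held a match (Hsph1 and Chordc1) and none of 3 that rose. Of the interferon genes, 5 of 6 that rose held one (Gbp2, Gbp3, Gbp5, Gbp7 and Cxcl10), and so did 6 of 13 that were not called.

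Cytosolic heat-shock chaperones, which refold or hold damaged proteins, were lower in KO in 10 of 20 and higher in 4, with a median of -0.51, and in 6 of the 20 every KO library lay below WT. Hspa1a, an inducible Hsp70, measured 126, 421, 241 and 429 CPM in WT and 8.82, 5.18 and 52.8 CPM in KO (-3.78 ± 0.83, adjusted p = 0.00332). WT libraries spread widely, and the highest KO library stayed below the lowest of them. Its near-identical copy Hspa1b showed the same picture (-3.70 ± 0.87), so the split of reads between them is uncertain. Hsph1, the Hsp110 that serves as an exchange factor for Hsp70, fell by 2.11, the J-protein Dnaja1 by 1.36, the small heat-shock proteins Hspb1 and Cryab by 1.17 and 1.04, and the constitutive Hspa8 by 0.83. The smaller falls were in Chordc1 (-0.96), Stip1 (-0.74) and Bag3 (-0.61). The 4 that rose were St13 (1.08), Dnajb4 (0.87), Ahsa1 (0.56) and Hspa4 (0.49). Without KO replicate 2, 6 fell, and without WT replicate 4, 7 rose. When the libraries with muscle transcripts were left out, 7 fell and 1 rose.

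The endoplasmic reticulum folding genes went another way, with 8 of 22 higher and 2 lower (median 0.18). The J-protein Dnajb9 rose from 18.7 ± 3.73 to 46.5 ± 8.42 CPM (1.32 ± 0.20, adjusted p = 9.45e-05), the chaperones Hyou1 and Calr by 0.67 and 0.58 and the disulfide isomerase Pdia3 by 0.49. The 2 that fell were the stress transcription factor Ddit3, or CHOP (-0.56), and Creld2 (-0.40), which was not called without KO replicate 2. Leaving out WT replicate 3, KO replicate 1 or the 3 libraries with muscle transcripts left 5 higher.

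Targets of the stress transcription factor ATF4 and the enzymes of one-carbon metabolism moved unevenly, with 8 of 21 higher, 3 lower and a median of 0.45. Gdf15, a hormone released by stressed cells that acts on appetite, measured 2.74, 1.53, 1.56 and 0.848 CPM in WT and 34.4, 8.38 and 13.5 CPM in KO (3.49 ± 0.49, adjusted p = 8.77e-05). All 3 KO libraries stood above WT, the highest being KO replicate 1. Mthfd2, of mitochondrial folate metabolism, rose by 1.83, asparagine synthetase Asns by 1.30, the lipoprotein receptor Vldlr by 1.07 and the serine-making phosphatase Psph by 0.63. Nupr1 (-0.90), the cationic amino acid transporter Slc7a1 (-1.37) and Atf3 (-1.25) fell, of which 1 was called lower without the 3 libraries with muscle transcripts. The list's median was 0.24 without KO replicate 1. Fgf21, another stress hormone, was near 1 CPM or below (0.655 ± 0.645 in WT, 0.533 ± 0.424 in KO) and was not called.

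Genes that make and run ribosomes moved differently by group. Of 20 cytosolic aminoacyl-tRNA synthetases, the enzymes that charge transfer RNAs, 14 rose and none fell (median 0.48). Eprs rose from 58.7 ± 4.92 to 123 ± 15.2 CPM (1.07 ± 0.10, adjusted p = 1.02e-06), Aars by 1.04, Wars by 0.99, Gars by 0.88 and Sars by 0.79, and without the 3 libraries with muscle transcripts 13 were called. Mitochondrial ribosomal proteins rose in 36 of 77 and fell in 12 (median 0.18). Mrpl39 measured 38.6, 37.9, 38.3 and 38.1 CPM in WT and 78.5, 79.3 and 60.5 CPM in KO (0.93 ± 0.09, adjusted p = 1.74e-06), the WT libraries being nearly equal. Mrpl4, Mrpl15, Mrps2 and Mrps31 rose by 0.70 to 0.88, while Mrps12 (-0.68), Mrpl23 (-0.47) and Mrps9 (-0.44) were among those that fell. In the fit that leaves out the muscle-bearing libraries, 25 rose and 3 fell, and without KO replicate 1 the median was 0.12. Of 22 ribosome biogenesis genes 8 rose, among them Polr1a, the largest subunit of RNA polymerase I (0.59), nucleolin Ncl (0.48), Bop1 (0.37), Nop2 (0.39) and Dkc1 (0.42). Gar1 fell (-0.91). Leaving out KO replicate 1 left 5 higher, and leaving out the 3 libraries with muscle transcripts left 1.

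Cytosolic ribosomal proteins were more often lower, in 34 of 76 against 5 higher, with a median of -0.18. The changes followed the length of the coding sequence: across the 76 genes Spearman's rho between coding length and log2 fold change was 0.667, a description across genes that share all 7 libraries. Rpl38 (-1.08 ± 0.14), Rps21 (-1.01 ± 0.13) and Rps29 (-0.90 ± 0.12), with coding lengths of 210, 249 and 168 bases, fell most. Rps29 measured 253, 209, 271 and 233 CPM in WT and 154, 115 and 120 CPM in KO. Rpl15 (0.47), Rps2 (0.32), Rpl10 (0.31), Rpl23a (0.28) and Rpl7a (0.26) were the 5 that rose. The 53 members under 600 coding bases had a median of -0.29 and the 23 longer ones of -0.026, whereas at room temperature the medians were -0.041 and -0.015. Mitochondrial ribosomal proteins showed the same trend (rho 0.418, n = 77; median 0.030 for 40 short and 0.43 for 37 longer members). Over all 13231 tested genes with a coding length rho was -0.099. Without KO replicate 1 only 1 rose and the median was -0.28, and without KO replicate 3 it was -0.12. Without KO replicate 2, 3 rose, and without the 3 libraries with muscle transcripts 14 fell and 2 rose.

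**Figure D4:**
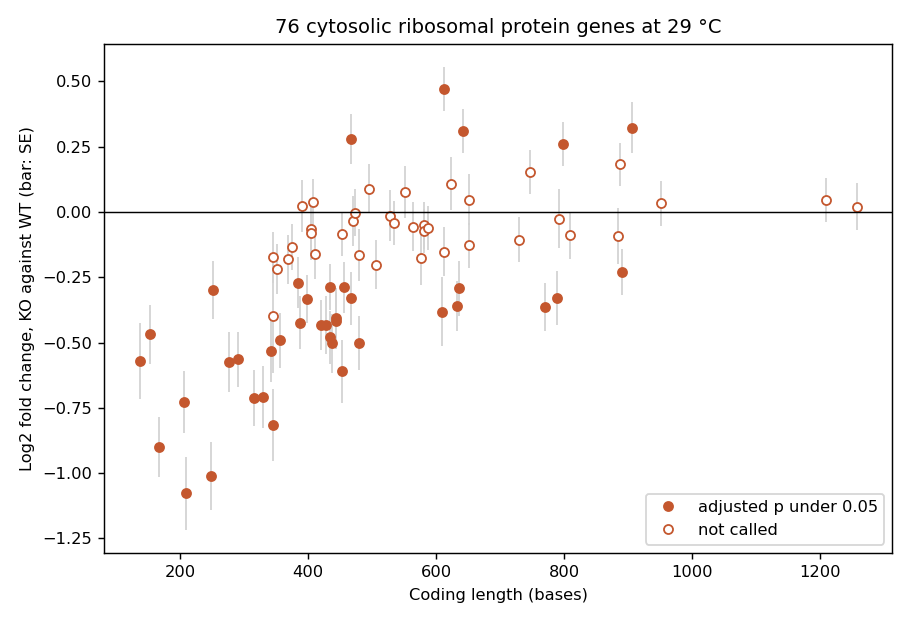
Log2 fold change with SE of 76 cytosolic ribosomal protein genes at 29 °C against the length of their coding sequence in bases, filled where the adjusted p was under 0.05. Rpl38, Rps21 and Rps29 lie lowest, and the 23 genes of 600 bases or more have a median of -0.026.

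Proteasome subunits, which make up the complex that degrades ubiquitin-tagged proteins, rose in 20 of 32 and fell in 1 (median 0.34). The regulatory subunits Psmd11 (0.92 ± 0.10, from 28.5 ± 3.02 to 53.7 ± 3.17 CPM), Psmd12 (0.89) and Psmd1 (0.89) led, followed by the catalytic subunit Psmb7 (0.80) and Psma4 (0.52). Psmb4 fell (-0.26), with overlapping libraries, and was not called without WT replicate 1, WT replicate 3, KO replicate 2 or KO replicate 3. Without the 3 libraries with muscle transcripts 19 were higher.

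Metabolite carriers of the inner mitochondrial membrane, the SLC25 family, rose in 20 of 37 and fell in 5 (median 0.50). Slc25a20, which brings in acylcarnitines for oxidation, measured 177, 188, 188 and 217 CPM in WT and 432, 483 and 430 CPM in KO (1.22 ± 0.12, adjusted p = 1.64e-06). Slc25a51, the NAD carrier, rose by 1.11, the glutamate carrier Slc25a22 by 1.05, Slc25a16 by 1.15 and the calcium-regulated ATP carrier Slc25a23 by 0.86. The 5 lower members were Slc25a27 (-0.77), Slc25a25 (-0.77), the glycine carrier Slc25a38 (-0.46), the mitochondrial iron importer Slc25a37 (-0.35) and Slc25a36 (-0.31). With the 3 muscle-bearing libraries set aside, 13 rose and 3 fell. Leaving out WT replicate 3 left 2 lower, and leaving out any KO library 3.

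Peroxisomes, which oxidise very long chain and branched fatty acids and make ether lipids, had 23 of 34 genes higher and 1 lower. Their median was 0.55, and 0.54 without the 3 libraries with muscle transcripts, where fewer members were called. Pex7, an import receptor, rose from 14.8 ± 0.726 to 30.7 ± 4.39 CPM (1.05 ± 0.10, adjusted p = 1.11e-06), the bifunctional enzyme Hsd17b4 by 0.96 and the membrane assembly factor Pex3 by 0.84. The one that fell was Far1, the reductase that supplies fatty alcohols for ether lipids (-1.02, from 38.9 ± 11.1 to 19.2 ± 2.60 CPM). The breakdown of branched-chain amino acids, a fuel of brown fat, had 13 of 22 genes higher and none lower (median 0.40). Leaving out KO replicate 2 gave 10 higher and 1 lower, with a median of 0.30. The median was 0.31 without the 3 libraries with muscle transcripts, where fewer members were called. Pcca, of propionyl-CoA carboxylase, measured 50.3, 53.8, 50.9 and 47.4 CPM in WT and 154, 181 and 105 CPM in KO (1.53 ± 0.14, adjusted p = 1.02e-06). Mut, a later enzyme on that route, rose by 1.37, Mccc1 by 1.19, Dld by 1.06 and Hibadh by 0.93.

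Iron and haem genes rose in 17 of 26 and fell in 4 (median 0.53). Steap3, a ferric reductase, measured 8.29, 9.93, 9.06 and 6.58 CPM in WT and 26.3, 27.4 and 25.1 CPM in KO (1.63 ± 0.12, adjusted p = 2.94e-07). The haem enzyme Cpox rose by 1.26, the cysteine desulfurase Nfs1, which starts iron-sulphur cluster assembly, by 0.83, and Aco1, the iron-responsive regulator, by 0.83. Ppox (-0.65) and Alad (-0.40), of haem synthesis, and Blvrb (-0.43) fell, as did Slc25a37. Leaving out KO replicate 2 or KO replicate 3 left 2 lower. Without the 3 libraries with muscle transcripts the median was 0.51, and fewer members were called each way.

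Antioxidant genes and NRF2 targets rose in 19 of 30 and fell in 1 (median 0.47, and also 0.47 without the 3 libraries with muscle transcripts). Fewer members were called without those libraries. Peroxiredoxin Prdx3, a mitochondrial peroxidase, measured 145, 139, 139 and 137 CPM in WT and 327, 295 and 230 CPM in KO (1.02 ± 0.10). Gclm, which sets the rate of glutathione synthesis with its catalytic partner, rose by 1.27, catalase Cat by 1.07, mitochondrial superoxide dismutase Sod2 by 0.89 and thioredoxin reductase Txnrd1 by 0.73. Txnrd2, its mitochondrial counterpart, fell (-0.32), with overlapping libraries. The regulator itself, Nfe2l2 (NRF2), was not called, at 82.9 ± 13.9 CPM for WT against 83.5 ± 3.34 for KO. Without WT replicate 4 or KO replicate 1, 3 members were lower.

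Cholesterol synthesis and uptake had 2 of 21 members higher and 6 lower (median -0.33), against a median of 0.45 in the comparison at room temperature. Cyp51 (-0.75), the sterol demethylase, and the kinase Pmvk (-0.87), which acts earlier in the pathway, were among those that fell, and Sc5d (0.92) and Hsd17b7 (0.52) rose. The KO effect differed between the temperatures for 9 of the 21 by the interaction test, against 28.3% of all genes tested. Cyp51 was among the 9 (-1.57, adjusted p = 0.00112). The rise of Hsd17b7 was not called without WT replicate 2, KO replicate 1 or KO replicate 2. Only 2 of the list were called lower when KO replicate 2 was left out, 3 when WT replicate 1 or KO replicate 3 was, and 1 without the 3 libraries with muscle transcripts. Of 21 sphingolipid genes 6 were higher and 5 lower, shares near those of all genes, and the median of 0.02 ran from -0.089 to 0.060 with 1 library left out. Sgpl1, the lyase that ends the pathway, rose by 1.53 (from 63.2 ± 16.2 to 183 ± 29.2 CPM) and the ceramide synthase Cers2 by 0.46, while Cers5 (-0.56), Cers4 (-0.78), the first-step subunit Sptlc2 (-0.63), Ugcg (-0.67) and the kinase Sphk1 (-1.96) fell. When the libraries with muscle transcripts were left out, 3 rose.

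Glycogen and glucose uptake genes rose in 11 of 23 and fell in 1 (median 0.56). Ugp2, which makes the sugar donor, measured 61.4, 64.5, 65.5 and 65.7 CPM in WT and 150, 150 and 139 CPM in KO (1.19 ± 0.12, adjusted p = 2.96e-06), and the branching enzyme Gbe1 rose by 1.28 and the synthases Gys2 and Gys1 by 1.23 and 0.49. Ppp1r3d, a glycogen-targeting phosphatase subunit, rose by 0.82 and its relative Ppp1r3f fell by 0.71, a call lost without WT replicate 1, WT replicate 3, KO replicate 2 or KO replicate 3. In the fit that leaves out the muscle-bearing libraries, 6 rose. The pentose phosphate pathway, which makes NADPH and ribose, had 7 of 12 members higher and 2 lower (median 0.73): its first enzyme G6pdx rose by 1.33, its reticulum counterpart H6pd by 1.07, the phosphopentomutase Pgm2 by 1.03, Rbks by 1.07 and Rpe by 0.77, while Pgls (-0.52) and Prps2 (-0.49) fell, the latter not called without KO replicate 1. Insulin signalling had 8 of 22 higher and 3 lower (median 0.31). The docking protein Irs1 rose from 13.4 ± 3.19 to 33.2 ± 11.5 CPM (1.30 ± 0.24), the kinases Gsk3a, Gsk3b and Akt2 by 1.0, 0.97 and 0.44 and the pseudokinase Trib1 by 1.91. Its relative Trib2 fell by 1.41, the IGF1 receptor Igf1r by 1.0 and the inhibitory adaptor Grb10 by 1.12. Without the 3 libraries with muscle transcripts 2 rose and 3 fell.

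Transcription factors of the adipocyte programme rose in 10 of 17 and fell in 2 (median 0.45). Cebpa measured 311, 273, 298 and 266 CPM in WT and 677, 741 and 470 CPM in KO (1.13 ± 0.14, adjusted p = 9.40e-06), and Cebpb rose by 1.41, the brown-fat selector Ebf2 by 1.06, Zfp423 by 0.88 and Stat5b by 0.45. Gata2, which holds precursors back, fell by 1.38, and Tcf7l2 by 0.46, both with overlapping libraries. Neither was called without KO replicate 1 or KO replicate 2, and without the 3 libraries with muscle transcripts 6 members rose. Secreted adipose hormones rose in 9 of 22 and fell in 4, with a median of 0.33 that was 0.10 without WT replicate 4 or without KO replicate 1. Nrg4, a brown-fat ligand that acts on liver, rose from 41.9 ± 6.76 to 90.6 ± 11.8 CPM (1.11 ± 0.15) and Nampt by 0.82. The 4 that fell were the lipase inhibitor Angptl4 (-0.49), adipsin Cfd (-0.54), endothelin Edn1 (-0.91) and apelin Apln (-1.12), and without KO replicate 1, 2 fell. Of 7 tested white adipocyte markers only Npr3, a clearance receptor for natriuretic peptides, passed, and it rose (0.94). Leptin, Lep, measured 122, 140, 93.3 and 54.4 CPM in WT and 178, 127 and 83.4 CPM in KO, with overlapping groups.

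Stress and signalling lists showed no common direction. Hypoxia genes had 6 of 17 higher and 5 lower: the glycolytic activator Pfkfb3 (1.48), Egln3 (0.69), Egln1 (0.62) and Hif1a (0.38) rose, and P4ha1 (-1.18), Adm (-1.0), Ndrg1 (-0.84), P4ha2 (-0.59) and Epas1 (-0.32) fell. Without WT replicate 2, 3 rose, without WT replicate 4 or KO replicate 1, 2 fell, and without the 3 libraries with muscle transcripts 1 rose and 3 fell. Targets of p53 divided 5 and 5 among 16. Ccng1 measured 74.7, 77.9, 97.1 and 83.3 CPM in WT and 191, 191 and 185 CPM in KO (1.19 ± 0.09, adjusted p = 3.66e-07), and Phlda3 rose by 1.14 and Trp53inp1 by 0.82. The cell cycle inhibitor Cdkn1a, the best known of these targets, fell by 1.23 (adjusted p = 0.0103), from 300 ± 133 to 128 ± 56.0 CPM with overlapping libraries, and the death receptor Tnfrsf10b by 0.65. The call of Cdkn1a was lost without KO replicate 2 (-1.04, adjusted p = 0.0521). With KO replicate 1 or KO replicate 2 left out 2 fell, with WT replicate 1 or WT replicate 2 left out 3, and without the 3 libraries with muscle transcripts 2 rose and 2 fell.

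Of 21 immediate-early genes, which respond within minutes to a stimulus, 4 rose (Nr4a1 by 2.40, Nr4a2 by 1.66, Ier3 by 1.28 and Myc by 0.73) and 3 fell (Klf2 by 1.31, Klf4 by 1.27 and Klf6 by 0.96). Both shares were below those of all genes. Nr4a1 measured 82.7, 70.8, 84.5 and 32.8 CPM in WT and 343, 578 and 152 CPM in KO, and its call was lost with any single library other than KO replicate 3 left out (adjusted p up to 0.122, without KO replicate 2). Without WT replicate 1, WT replicate 4 or KO replicate 2, 2 rose, and without the 3 libraries with muscle transcripts 1. Of 17 glucocorticoid-responsive genes, Pdk4 (1.08) and Klf9 (0.87, called with WT replicate 4 left out but with none of the other 6) rose and Angptl4, Errfi1 (-1.09), Sgk1 (-0.98) and Cdkn1a fell. Without KO replicate 2, or without the 3 libraries with muscle transcripts, 2 fell.

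Genes of blood vessels were lower. All 18 endothelial markers had a negative log2 fold change and 17 passed, with a median of -1.29. For 14 of the 18 the KO effect differed from that at room temperature by the interaction test, against 28.3% of all genes tested. Gpihbp1, which carries lipoprotein lipase to the capillary lumen, measured 220, 213, 263 and 286 CPM in WT and 80.8, 63.0 and 84.6 CPM in KO (-1.69 ± 0.14, adjusted p = 4.10e-07), in the same libraries in which Lpl rose. The junction protein Esam fell by 1.56, Egfl7 by 1.63, the transcription factor Erg by 1.33 and the angiopoietin receptor Tek by 1.33. The apelin receptor Aplnr measured 56.8, 25.1, 18.5 and 9.04 CPM in WT and 19.6, 18.5 and 13.1 CPM in KO and was the one marker that did not pass (-0.68, adjusted p = 0.318). In bulk tissue fewer cells of a type and less RNA per cell cannot be told apart. With the 3 muscle-bearing libraries set aside, 16 were lower, with a median of -1.54.

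Of 20 angiogenic ligands and receptors 13 fell and 1 rose (median -0.97). The one that rose was Vegfa, the main growth factor for capillaries, at 353, 330, 311 and 287 CPM in WT and 455, 625 and 480 CPM in KO (0.70 ± 0.14, adjusted p = 8.79e-04), and its call was lost without the 3 libraries with muscle transcripts (0.45, adjusted p = 0.12). Its relative Pgf fell by 2.29 (from 15.1 ± 3.21 to 3.07 ± 1.78 CPM), and the vessel ligands Angpt2, Dll4 and Apln by 1.54, 1.48 and 1.12. The receptors Tie1 and Notch1 fell by 1.36 and 1.01. Tek, Tie1, Kdr, Flt1 and Aplnr stand in both lists. Pericyte and smooth muscle markers divided, with 2 of 12 higher (Cspg4, 0.71, and Des, 0.90) and 4 lower (Tagln, -1.07, Acta2, -0.85, Myh11, -0.77, and Rgs5, -0.60). Des, which skeletal muscle also expresses, was highest in KO replicate 3 (85.5 CPM) and not called without WT replicate 3, WT replicate 4 or KO replicate 3. All 5 red blood cell transcripts were lower, Hbb-bs from 2191 ± 600 to 963 ± 282 CPM (-1.19 ± 0.27, adjusted p = 0.00262) and Alas2 by 1.10. Hbb-bt, Hba-a1 and Hba-a2 fell by 1.08, 0.89 and 0.85, and reads of the paired globin copies are uncertain. Between 2 and 5 of the 5 passed with 1 library left out (2 without KO replicate 2) and none without the 3 libraries with muscle transcripts.

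**Figure D5:**
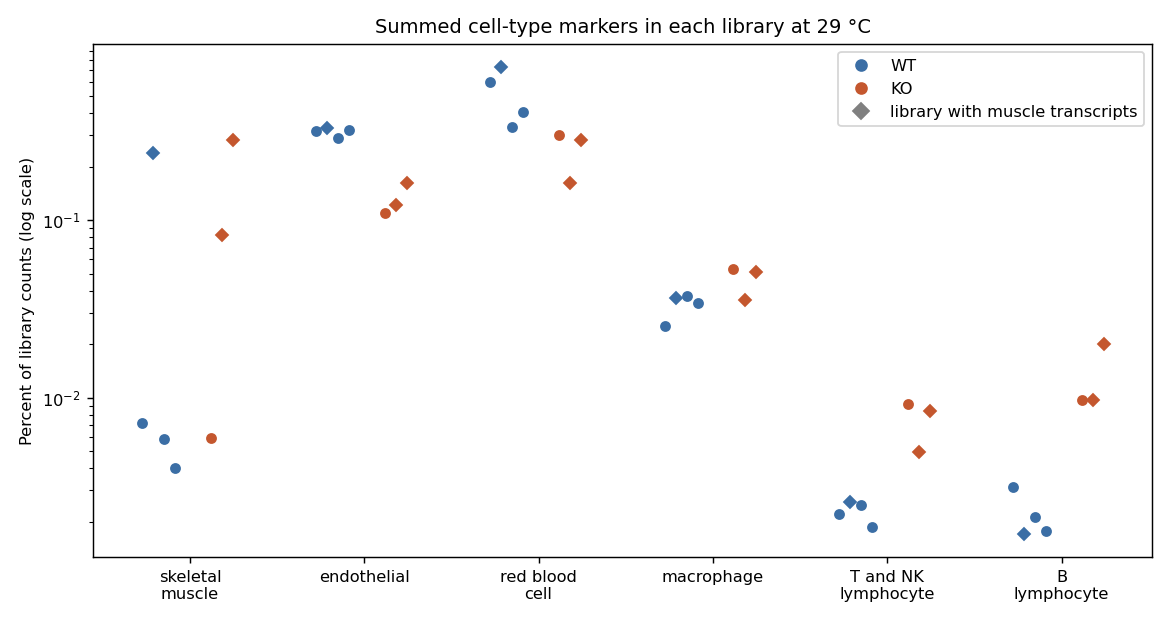
Summed counts of 6 marker lists as a percent of each library's counts, on a log axis, for WT (blue) and KO (orange) at 29 °C, with diamonds for the libraries with muscle transcripts. The summed endothelial markers are lower and the summed T and NK and B lymphocyte markers higher in every KO library. Skeletal muscle markers are high in 1 WT and 2 KO libraries. The B lymphocyte sum includes Jchain (7.14 to 18.2 CPM in WT, 69.0 to 159 CPM in KO). Of its 10 tested members, 2 were higher in KO without overlap.

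Imprinted growth genes, which are active mainly before weaning and tied to fetal growth, fell in 8 of 17 and rose in 1 (median -0.75). Ndn, or necdin, measured 110, 91.1, 117 and 118 CPM in WT and 36.8, 26.4 and 26.1 CPM in KO (-1.87 ± 0.15, adjusted p = 3.66e-07). Nnat measured 133, 215, 457 and 178 CPM in WT and 40.4, 33.2 and 42.5 CPM in KO (-2.67 ± 0.44, adjusted p = 4.34e-04). For both genes WT and KO did not overlap, although Nnat spread widely among the WT libraries. The non-coding RNA Meg3 fell by 1.32, Igf2 by 1.34 and Grb10 by 1.12, and Sgce, the one that rose, by 0.50. When the libraries with muscle transcripts were left out, 8 fell and 1 rose, and Sgce was not called (adjusted p = 0.0516). Without WT replicate 1 or KO replicate 3, 2 rose, and the median was -1.22 without the latter. Of 15 Parkinson disease genes 4 rose and 6, Park7 included, fell. Synj1 (-1.06), Park2 (-0.87) and Lrrk2 (-0.74) were among those that fell, and the retromer subunit Vps35 (0.84), Pla2g6 (0.83), Eif4g1 (0.76) and Fbxo7 (0.41) rose.

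Few cell division genes were called: of 26, Pcna (0.55) and Mcm7 (0.36) rose and none fell. The median of -0.12 ran from -0.30 to 0.065 with 1 library left out, and Mcm7 was called only with WT replicate 1 or KO replicate 2 as the library left out. Extracellular matrix genes divided evenly, with 8 of 32 higher and 8 lower, shares near those of all genes. The collagen chains Col1a1 (0.84, from 58.2 ± 21.2 to 104 ± 6.42 CPM) and Col6a2 (0.86) rose, as did Mmp2 (0.77), the macrophage elastase Mmp12 (1.77) and Loxl1 (1.2). The protease inhibitors Timp4 (-1.30) and Timp3 (-0.67), Mmp9 (-1.63), Col5a3 (-0.73) and Sparc (-0.42) fell. In the fit that leaves out the muscle-bearing libraries, 3 rose and 5 fell. Of 12 fibroblast and progenitor markers, Col1a1, Col3a1 (0.73) and Pdgfra (0.71) rose and Cd34 (-0.72) and Pi16 (-1.80) fell. Pi16 was not called without WT replicate 2 or without any 1 of the KO libraries (adjusted p = 0.0515 to 0.0803). Leaving out WT replicate 3 gave 5 higher, and leaving out the 3 libraries with muscle transcripts 1 higher and 1 lower. Nerve and Schwann cell markers had 2 of 10 higher (Mbp, 0.79, and S100b, 0.51, which adipocytes also express) and 1 lower (Stmn2, -0.90), with S100b not called without WT replicate 3 or KO replicate 1 and Stmn2 not without KO replicate 1.

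Lymphocyte genes were higher in KO at low levels. All 18 T and NK cell markers passed, with a median of 2.12, and 17 did not overlap between the groups. Cd3e, of the T cell receptor complex, measured 0.243, 0.266, 0.242 and 0.242 CPM in WT and 2.83, 1.24 and 2.36 CPM in KO (3.09 ± 0.46, adjusted p = 5.98e-05), with KO replicate 2 the lowest of the KO libraries. Cd4, the helper T cell co-receptor, rose by 2.14 (from 0.891 ± 0.203 to 3.93 ± 0.683 CPM), the cytotoxic protease Gzmb by 2.96, Il2rb, the interleukin 2 receptor subunit of NK and activated T cells, by 2.27, and Cd2 by 1.84. Cd6, Sh2d2a and Ly6c2, which T cells also express, rose by 2.82, 2.85 and 2.82. Summed, the list took 0.00187% to 0.00259% of counts in WT and 0.00491% to 0.00914% in KO. Without the 3 libraries with muscle transcripts 14 passed, with a median of 2.28.

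Jchain and Mzb1, both of antibody-secreting cells, rose more than the other B cell markers tested. Jchain, which joins IgA and IgM molecules, measured 18.2, 7.14, 11.7 and 14.0 CPM in WT and 82.2, 69.0 and 159 CPM in KO (3.02 ± 0.48, adjusted p = 3.18e-04), and Mzb1 0.139, 0.266, 0.173 and 0.242 CPM in WT and 2.97, 3.91 and 5.58 CPM in KO (adjusted p = 1.73e-06). All 3 KO libraries were high for both. The B cell receptor subunits Cd79a (1.52) and Cd79b (0.97) and the surface proteins Cd22 (1.40) and Ms4a1 (1.28) rose as well, with KO replicate 2 the highest library for each, and of these only Cd22 did not overlap between the groups. Of the 10 tested B cell markers 5 were higher. Without KO replicate 2 only 1 was called higher, and without the 3 libraries with muscle transcripts 1 was higher and 1 lower.

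Macrophage markers did not move together. The general markers Adgre1 (F4/80), at 9.57 ± 3.24 and 9.57 ± 2.73 CPM, and Csf1r, at 23.6 ± 2.49 and 24.8 ± 4.30 CPM, did not pass. The phagocyte genes Cd68 (1.37), Mpeg1 (0.92), C1qc (0.92), Itgax (0.92) and C1qb (0.82) were among 6 of 20 that rose, and the tissue-resident markers Cd163 (-1.37), Mertk (-1.02) and Folr2 (-0.94) fell. Folr2 was not called without WT replicate 2, WT replicate 3, KO replicate 2 or KO replicate 3. Itgax was not called without KO replicate 3, nor C1qb without KO replicate 1. Cd68 measured 6.14, 9.96, 8.19 and 9.61 CPM in WT and 21.9, 17.7 and 26.4 CPM in KO. Granulocyte and mast cell markers had no member called of 7, with S100a8 and S100a9 among them, and 3 were lower without WT replicate 4. Of 8 dendritic cell markers Itgae rose (0.83) and Zbtb46 (-1.16) and Cd209a (-1.46) fell. Zbtb46 is also expressed by endothelium.

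Some genes of interferon signalling and MHC class I presentation rose. Of 28 interferon-stimulated genes 10 rose and none fell (median 0.52). The guanylate-binding proteins Gbp10, Gbp2 and Gbp5, which act against pathogens inside cells, rose by 3.60, 2.08 and 1.81, and Cxcl10, a chemokine that draws T cells, by 2.75. Gbp2 measured 28.4, 33, 26.5 and 27.5 CPM in WT and 215, 83.4 and 66.8 CPM in KO, so that KO replicate 1 was far above the other KO libraries, as it was for Gbp10 (57.4 CPM against 16.6 and 10.1). Reads among Gbp genes, which resemble each other closely, are uncertain, and the rises of Gbp3 and Gbp7 were not called without KO replicate 1 (adjusted p = 0.142 and 0.178), with Gbp3 called only where KO replicate 3 was the 1 library left out. Genes tied to type I interferon, such as Ifit1, Isg15 and Mx1, did not pass. Without KO replicate 1, 6 rose, and at room temperature the list's median was 0.86 with no member called.

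Of 17 genes of MHC class I presentation 8 rose and none fell (median 0.47). B2m, the invariant chain, measured 508, 604, 588 and 568 CPM in WT and 1607, 832 and 1096 CPM in KO (1.06 ± 0.18, adjusted p = 2.74e-04), and H2-D1 (0.70), the peptide transporter Tap2 (0.72), Erap1 (0.54) and Psme1 (0.54) rose too. Leaving out KO replicate 1 or WT replicate 3 left 5. Of 10 class II genes, H2-Eb1 (1.15) and H2-Aa (0.94) rose, a share below that of all genes, and H2-Aa was not called without WT replicate 3 or KO replicate 1 (adjusted p = 0.0548 and 0.11). Of 22 chemokines and interleukins 5 rose, a share near that of all genes. They were the lymphocyte attractants Ccl4 (2.57) and Ccl5 (2.26), Ccl8 (2.05), eotaxin Ccl11 (0.94) and Cx3cl1 (0.58), and Tgfb1 fell (-0.85). Ccl8 was not called without WT replicate 1 or KO replicate 1. Cx3cl1 was not called without WT replicate 3, KO replicate 1 or KO replicate 2. Without KO replicate 1, 3 rose and the list's median was -0.047. Complement genes rose in 8 of 18 and fell in 1, Cfd, which was not called without WT replicate 3, KO replicate 1 or KO replicate 3. C3 rose from 145 ± 26.7 to 405 ± 115 CPM (1.48 ± 0.22), Cfb by 1.6 and the inhibitor Serping1 by 1.05. Without KO replicate 1, 4 rose. The markers of T and NK cells rose in the same libraries, and their part in these results was not tested.

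Muscle transcripts were high in WT replicate 2 and in KO replicates 2 and 3, and low in the other libraries of both genotypes. None of the 22 skeletal muscle markers passed, with a median of 0.77 that became 6.92 without WT replicate 2, when 14 were called higher. With all 3 libraries with muscle transcripts left out, the median of the 16 members then tested was 0.62, so that fit is not free of a muscle difference. Its lone KO library, KO replicate 1, lay above the remaining WT libraries for Acta1 and Myh4. Its summed muscle share, 0.00593%, lay within theirs (0.00401% to 0.00717%). Acta1, skeletal actin, measured 0.763, 199, 0.553 and 0.605 CPM in WT and 2.66, 108 and 302 CPM in KO. The fast myosin Myh4 was at 0 in 3 WT libraries, at 260 CPM in WT replicate 2, and at 0.808, 126 and 479 CPM in KO. At room temperature the summed share was at most 0.00504%.

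The KO effect at 29 °C was not the one seen at room temperature. By the interaction test 4272 genes (28.3%) had an effect that differed between the temperatures, and 4006 of them were among the 6747 called at 29 °C. At room temperature 36 genes passed (0.239%). Of these 24 passed at 29 °C too, and 9 of the 24 had the same sign. Both comparisons have their own control libraries and share 1 estimate of spread. For Park7 the effect did not differ between them (interaction 0.065 ± 0.17, adjusted p = 0.805).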

How the data were processed

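Total RNA of brown adipose tissue was sequenced on a BGIseq500 in 15 libraries, of which 7 (3 KO, 4 WT) form the comparison at 29 °C. Per the submitters' processing notes, reads were aligned with STAR 2.7.10a to mm10, counted with RSEM 1.2.28 and tested with DESeq2 (version given as 1.3.40). The deposited values are the authors' expected counts per gene symbol, 24030 symbols, estimated and not normalized, and 24 symbols had been turned into dates. They were rounded to whole numbers here. Library preparation, strand and annotation are not given in the sources used here.

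Genes were kept by edgeR's filterByExpr (minimum count 10), scaled by TMM and fitted by edgeR 4.0.16's quasi-likelihood test in R 4.3.3, with 4 groups over all 15 libraries and 11 residual degrees of freedom. A gene was called at a Benjamini-Hochberg adjusted p under 0.05. Log2 fold changes are those of the quasi-likelihood fit and are given with their SE. A prior count of 1 was used only for log2 CPM, as in the principal components. CPM are TMM-scaled, means with SD. The scripts were tested on simulated data. Alternatives were DESeq2 1.42.0, limma-voom 3.58.1, other scaling and filters, each library left out, the 3 libraries with muscle transcripts left out, a muscle covariate, thinned counts and a replicate block.

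Genes named are Park7, the 20 largest rises and falls with no overlap and a mean of at least 1 CPM, the 10 largest gains and losses in CPM, and up to 5 members each way per list by p. Other genes named were chosen after their values were seen. Members and lists were chosen with earlier results of these data known. Gene positions and coding lengths are from GENCODE M21, which held 80.8% of the symbols. Some genes that the rule names are not reported here.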

Additional observations from a re-analysis of the deposited data

Results flagged for a closer look

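In 13 of the 327 genes named and in 1 of 15 marker shares and library measures, the highest or lowest of the 4 WT libraries at 29 °C stood apart from the other 3 by Dixon's test at 95%. Chance alone gives this in about 1 in 20 groups. Groups of 3, such as KO, were not tested.

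WT replicate 2 was the highest for skeletal muscle transcripts, with 199 CPM of Acta1, 260.5 CPM of Myh4 and 0.238% of counts in the muscle marker list, and by a small margin for Cd3e (0.266 CPM). WT replicate 4 was the highest for Esam (206 CPM), Gsk3b (31.0 CPM), Hlf (12.7 CPM), Pcna (46.3 CPM), Slc7a1 (31.5 CPM) and Trib1 (39.2 CPM), and the lowest for Park2 (7.14 CPM). WT replicate 3 was the highest for Errfi1 (144 CPM) and the lowest for Cd4 (0.588 CPM). WT replicate 1 was the highest for Dbp (3.68 CPM).

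The KO effect differed between 29 °C and room temperature for 4272 genes by the interaction test of edgeR's quasi-likelihood fit (adjusted p under 0.05). Given as the KO effect at 29 °C less that at room temperature on the log2 scale, the named genes with the largest differences upward were the plasma cell protein Mzb1 (6.29), the protease inhibitor Slpi (4.92), the clock output factor Dbp (4.81), the vesicle protein Syt12 (3.81) and the stress hormone Gdf15 (3.70). Those with the largest differences downward were the clock activator Npas2 (-4.58), the chaperone copies Hspa1a (-3.98) and Hspa1b (-3.69), the mucin Muc6 (-3.73) and the signalling regulator Dact2 (-3.66).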

How the results depend on the processing

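The genes called at 29 °C numbered 6747 and 4833 under a replicate block (2407 higher and 2426 lower), which could be fitted on the 7 libraries alone. Taken as deviations from each group's mean, same-numbered libraries had correlations of 0.33, 0.191 and -0.276. KO replicate 3 and WT replicate 2, both with muscle transcripts, reached 0.504. With so few libraries these values cannot decide whether the numbers pair the samples. Other counts were 4587 at an adjusted p under 0.01 (1988 lower), 4229 without the 3 libraries with muscle transcripts (2110 higher), 5324 on the 7 libraries alone, 6232 without a filter, 6870 by DESeq2, 7005 by limma-voom, 6120 with a muscle covariate and 6633 after thinning. They ran from 5374 without KO replicate 1 to 6616 without KO replicate 3. The share of calls that were higher, 55.3%, was 48.6% without a filter, 49.5% on 7 libraries, 49.8% under the block and 49.9% without the libraries with muscle transcripts. No called gene among the 327 checked changed sign. Genes named only in the last section, Other observations, were not checked. Of the 327 named genes, 82 lost their call without the libraries with muscle transcripts, and between 15 (without WT replicate 4) and 40 (without KO replicate 2) with 1 library left out. The cause of these shifts was not tested.

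Median log2 fold changes of lists moved as follows. Under the replicate block they were 0.049 for clock, 0.065 for reticulum folding, 0.43 for SLC25, 0.45 for peroxisome, 0.13 for hypoxia, -0.10 for p53, -1.08 for imprinted and -0.13 for Parkinson disease genes. Without the libraries with muscle transcripts they were 0.22 for clock, 0.74 for ATF4, 0.11 for ribosome biogenesis, 0.46 for proteasome, 0.22 for SLC25, -0.086 for cholesterol, 0.37 for glycogen, 0.095 for insulin, -1.31 for imprinted, 0.81 for MHC class II, 0.79 for chemokine, -1.54 for endothelial, -0.19 for B cell and -0.58 for dendritic genes. SLC25 gave 0.45 without a filter and 0.46 on 7 libraries, hypoxia 0.14 on 7 libraries and after thinning, and p53 -0.069, -0.055 and -0.076 without a filter, on 7 libraries and after thinning. Imprinted genes gave -1.11 by limma-voom and -1.05 with a muscle covariate, and dendritic genes -0.52 under a stricter filter. With 1 library left out, the lowest and highest medians were 0.065 and 0.29 for clock, 0.10 and 0.17 for reticulum folding, 0.30 and 0.56 for SLC25, 0.49 and 0.66 for peroxisome, 0.40 and 0.68 for glycogen, 0.11 and 0.23 for hypoxia, -0.090 and 0.064 for p53, -1.22 and -0.56 for imprinted, -0.12 and 0.014 for Parkinson disease, 0.17 and 0.53 for MHC class I, -0.047 and 0.50 for chemokine, -0.68 and 6.92 for muscle, -1.41 and -1.09 for endothelial, 0.24 and 1.21 for B cell and -0.23 and 0.15 for dendritic genes.

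Signs turned in 5 named genes, none of them called with all libraries. Adgre1, at a difference near 0, gave -0.0038 with RLE size factors, -0.050 without a filter, -0.0085 with a stricter one, -0.037 on 7 libraries, -0.0065 by DESeq2 and -0.0075 after thinning, and -0.22 to 0.20 with 1 library left out. Nfe2l2 gave -0.044 without a filter, -0.0051 with a stricter one, -0.031 on 7 libraries, -0.0089 after thinning, -0.16 without the libraries with muscle transcripts and -0.066 to 0.13 with 1 left out. Fgf21 gave 0.23 by limma-voom, 0.74 without those libraries and -1.18 to 0.48 with 1 left out. With 1 left out, Csf1r gave -0.072 to 0.18 and Myh4 -0.043 to 15.4.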

Other observations

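Further gene families were counted after their values had been seen, so their counts are descriptions to be read beside the 24.7% of all genes called higher and the 20% called lower. Of 54 tested genes whose symbols begin with Eif, which encode translation initiation factors and their regulators, 27 were higher in KO and 2 lower, with a median log2 fold change of 0.23. Eif4e3, a cap-binding protein, rose by 1.24, the haem-regulated kinase Eif2ak1 by 1.17 and Eif2b1, of the exchange factor that recharges Eif2, by 0.87. Those lower were Eif4ebp3, which restrains cap-dependent translation (-0.79), and the scaffold Eif4g3 (-0.36).

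The Adam and Adamts families hold metalloproteases of the cell surface and matrix, and also members known to lack protease activity. Of 33 genes tested, 13 fell and 2 rose, with a median of -0.58, and Adam11, Adam22 and Adamtsl5, which are of the inactive kind, are among those that fell. Adamts16 fell by 3.12, Adam11 by 2.0, Adamts15 by 1.64 and Adamts1 by 0.91, while Adam12 (1.02) and Adam9 (0.77) rose. Semaphorins and plexins, guidance ligands and receptors of nerves and vessels, had 12 of 26 members lower and 3 higher, with a median of -0.87. Sema4g fell by 2.56, the endothelial receptor Plxnd1 by 1.37 and Sema3g by 1.22, and Sema4d, which T cells also express, rose by 1.55.

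Beside Jchain and Mzb1, the B cell coactivator Pou2af1 rose, from 0.486, 0.266, 0.415 and 0.323 CPM in WT to 0.784, 2.40 and 2.36 CPM in KO (log2 fold change 2.28 ± 0.40, adjusted p = 2.87e-04 by edgeR's quasi-likelihood test). All 3 KO libraries lay above WT. Other genes of antibody-secreting cells did not pass: Derl3 at 1.03 (adjusted p = 0.0643), Irf4 at 1.63 (adjusted p = 0.0979), Sdc1 at 0.60 (adjusted p = 0.0685), and Fkbp11, Prdm1 and Xbp1 at 0.30, 0.27 and 0.19. Xbp1 and Irf4 are expressed by other cells of the tissue too.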
